A study of Mus musculus with 4 samples.

Results

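Egr1, Egr2, Egr3, Nr4a1, Nr4a2 and Nr4a3 encode 6 transcription factors that antigen receptors switch on. They were taken by symbol from the gene list of the count matrices, 6 of 32285 genes, and followed through splenic B cells and CD4+ T cells of mice immunized with sheep red blood cells. The EGR proteins are zinc finger factors of the immediate early class. Egr1 is switched on through the MAP kinase pathway and serum response factor, and Egr2 and Egr3 also need calcium, calcineurin and NFAT, and both restrain T cell activation by raising Cblb and other brakes on receptor signalling. The NR4A proteins are orphan nuclear receptors whose transcripts track the strength of recent antigen receptor signals. In regulatory T cells they help to keep Foxp3 expressed, and in B cells they limit the expansion of cells that met antigen without help.

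The animals were C57BL/6NRj mice that carried CD19Cre/+, a Cre driver active in B cells, and the labels give the same Il2rbfl/fl allele text for control and KO mice, so the genotype was read from the hashtag key. Il2rb encodes the beta chain of the interleukin-2 and interleukin-15 receptors, and as the Cre acts in B cells, the T cells of KO mice were not the cells in which Il2rb was deleted. Mice were either unimmunized (day 0) or examined 4 days after an intraperitoneal injection of sheep red blood cells (day 4). Splenic B and CD4+ T cells were isolated with magnetic kits, and the extraction text names a kit for naive CD4+ T cells. Each of the 2 libraries, B and T, mixed 4 hashtag pools. Where 4 values stand in a row, they belong to control and then KO mice of day 0, followed by control and then KO mice of day 4. How many mice a pool combined is not stated in the labels. With 1 pool per group there was no replicate and no test, and the intervals, at the 95% level, cover counting error alone.

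After filtering, 5477 B library and 7636 T library cells carried 1 hashtag, and 5264 of them had B lineage and 7480 T lineage markers. The pools held 1099, 987, 1311 and 1867 B lineage cells with 4653, 4905, 6096 and 5865 median unique molecular identifiers (UMIs), and 981, 1276, 1992 and 3231 T lineage cells with 4515, 4551, 5571 and 5449. Cd79a had UMIs in 99.9% of B lineage cells, Cd3e in 96.3% and Cd4 in 68.4% of T lineage cells. Il2rb was too sparse in B lineage cells to check the deletion, with 0, 0, 9 and 3 UMIs in the 4 pools. The libraries shared 84 barcodes, 57 of them with 1 hashtag in both. A level is a summed UMI count as CPM (counts per 1e+06 UMIs), and the share of cells with a UMI was taken after thinning every cell to 1500 UMIs. As a gauge of stray RNA, Cd3d had a UMI in 0.134% of thinned B lineage cells (7 of 5241), and Cd79a in 0.148% of thinned T lineage cells (11 of 7446). Both genes are foreign markers of the lineage gates, which set aside cells with more than 1 marker of such a list. The gauge is therefore held down by the gates, and it does not give the stray rate of other genes. A ratio was called higher or lower when it reached 1.5-fold with an interval that excluded 1, among genes whose 2 sums together reached 20 UMIs.

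The promoters are shown because some cells held several of the 6 transcripts. Cells with at least 2 were 0.916% of B lineage and 1.73% of T lineage cells. Whether the promoters bear on this was not tested. The 4 stretches below come from the 250 bases before the RefSeq start site and read 5′ to 3′ along the gene (RefSeq, GRCm38.p6). Those of Egr2, Nr4a1 and Nr4a2 end at the base before the start, that of Nr4a3 ends earlier, and capitals mark the core of the cyclic AMP response element, TGACG or its reverse complement CGTCA, which CREB family proteins bind, and in Egr2 also a CArG box, the site of serum response factor. They lie at chr10:67537619-67537868 (plus strand, Egr2), chr15:101266596-101266845 (plus strand, Nr4a1), chr2:57124004-57124253 (minus strand, Nr4a2) and chr4:48045055-48045152 (plus strand, Nr4a3, the first 98 bases of its window, which stop before annotated exon sequence).
Egr2: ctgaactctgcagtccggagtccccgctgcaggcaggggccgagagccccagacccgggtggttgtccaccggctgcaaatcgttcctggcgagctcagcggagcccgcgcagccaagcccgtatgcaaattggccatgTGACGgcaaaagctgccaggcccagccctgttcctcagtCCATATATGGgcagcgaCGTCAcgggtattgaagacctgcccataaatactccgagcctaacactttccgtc
Nr4a1: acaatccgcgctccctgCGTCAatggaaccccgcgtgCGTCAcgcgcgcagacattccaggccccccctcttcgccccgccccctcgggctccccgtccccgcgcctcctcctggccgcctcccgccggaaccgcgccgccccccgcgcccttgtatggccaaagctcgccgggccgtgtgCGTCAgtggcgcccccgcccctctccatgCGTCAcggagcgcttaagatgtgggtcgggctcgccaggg
Nr4a2: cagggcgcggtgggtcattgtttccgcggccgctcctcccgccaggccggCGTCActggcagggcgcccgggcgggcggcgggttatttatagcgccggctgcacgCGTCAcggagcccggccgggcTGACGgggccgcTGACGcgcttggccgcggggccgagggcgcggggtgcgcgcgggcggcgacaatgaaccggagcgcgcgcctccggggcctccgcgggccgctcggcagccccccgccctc
Nr4a3: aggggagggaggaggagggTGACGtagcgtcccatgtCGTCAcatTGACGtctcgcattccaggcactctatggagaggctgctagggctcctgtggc
The Egr2 and Nr4a1 stretches lie inside the annotated gene spans, chr10:67535475-67542188 and chr15:101254269-101274795, each in front of a later annotated start site. Egr2 had 5 RefSeq promoter entries, of which 1 is shown. In the full window of 250 bases, the half-site occurred 2 times in Egr2 and 4 times in each of Nr4a1, Nr4a2 and Nr4a3. Of 32526 distinct promoter windows of that length, 17.9% held a half-site on either strand, 3.93% held at least 2 and 0.695% at least 3. The palindromic full element TGACGTCA was in none of the 4 and in 1.56% of all windows. The CArG box, found in Egr2, was in 1.48% of all windows. The EGR binding site GCGNGGGCG had 1 match each in Nr4a1 and Nr4a2 against 4.74% of windows, and the NR4A monomer site AAAGGTCA had none against 1.35%. These matches are letters in a window, and binding was not measured.

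T lineage and B lineage cells used the 2 families differently. Nr4a2 and Nr4a3 were all but missing from B lineage cells, with 0, 1, 2 and 1 UMIs of Nr4a2 and 7, 2, 0 and 5 of Nr4a3 in the 4 pools. The share of thinned cells with a UMI was 0.0191% and 0.0382%. Stray Cd3d was in 0.134% and stray Cd3e in none of 5241 cells, but the gates hold that gauge down. It cannot tell whether the few Nr4a2 and Nr4a3 UMIs were stray. The 2 thinned cells with Nr4a3 both held Egr3 as well. T lineage cells held 224 UMIs of Nr4a2 and 342 of Nr4a3. Their levels were 5.10 CPM against 0.114 for Nr4a2, 44.7-fold higher (17.2 to 166), and 7.79 against 0.400 for Nr4a3, 19.5-fold higher (11.5 to 36.1). The NR4A response of these B cells was therefore read from Nr4a1 alone. Egr1 stood at 53.7 CPM in T and 26.0 in B lineage cells, 2.06-fold higher (1.91 to 2.23), and Nr4a1 at 23.2 and 12.6, 1.84-fold higher (1.65 to 2.07). Egr3 ran the other way, at 10.2 CPM in T and 22.7 in B lineage cells (0.450-fold, 0.400 to 0.506), and Egr2 did not reach the fold (8.79 against 6.28 CPM, 1.40-fold, 1.18 to 1.66). Thus 4 of 6 were called higher and 1 lower in T lineage cells, where 20.7% and 22.3% of 13958 genes were. Lineage and library cannot be told apart in this comparison.

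Few cells carried the transcripts, and fewer still carried most of them. In B lineage cells, Egr1 had 912 UMIs in 218 of 5264 cells, and 18 cells held more than 50% of the UMIs. Egr3 was the most evenly spread gene of the B library, with 794 UMIs in 447 cells, 105 of which held that share. In T lineage cells, 107 of 755 Egr1-positive cells and 32 of 187 Nr4a3-positive cells did so. The 5% of positive cells with most UMIs held 39.8% of the B library's Egr1 UMIs, 27.4% of the T library's, and 19.3% of the B library's Egr3 UMIs. One T lineage cell of KO day 0 held 29 of that pool's 60 Nr4a3 UMIs. A pool level can therefore turn on 1 cell, which the counting intervals do not show, so ratios without the top cell of each sum and ratios of the share of positive cells are given where they differ.

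**Figure D1:**
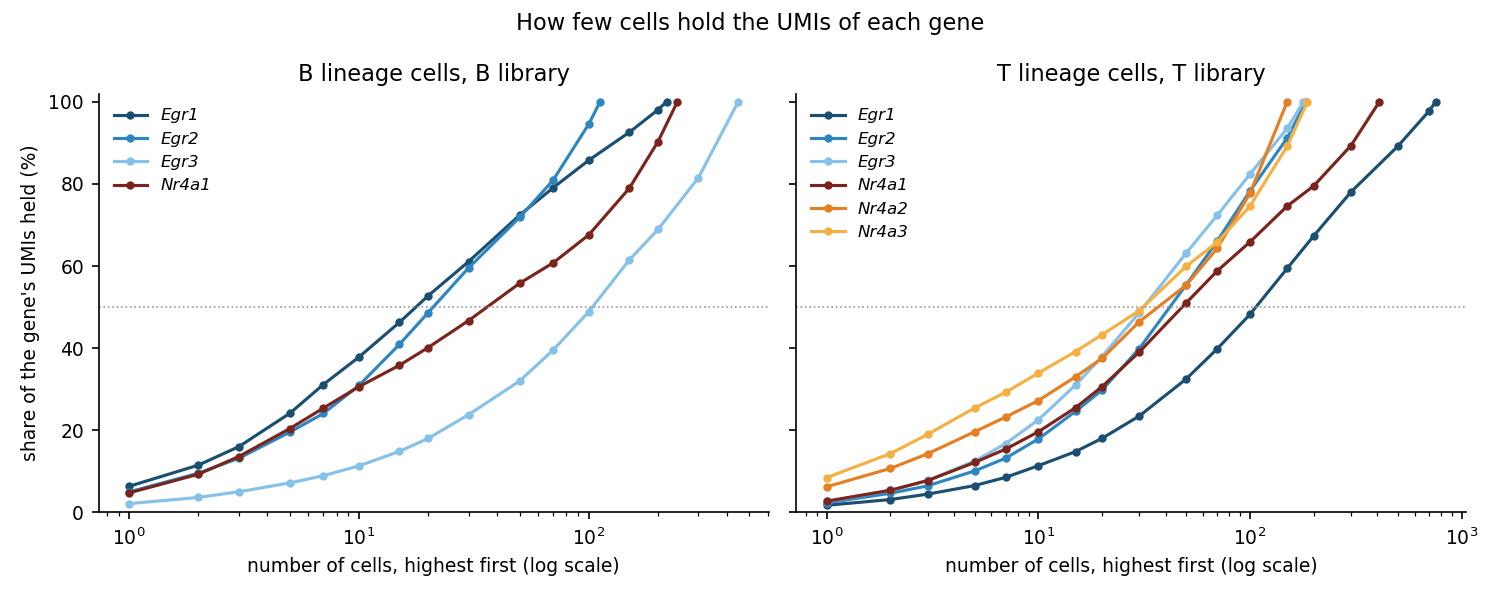
Cumulative share of each gene's UMIs (%, y axis) held by its highest cells (number of cells, log scale, x axis), for lineage cells of the B library (left, 4 genes with at least 20 UMIs) and the T library (right, 6 genes); the dotted line marks 50%. Egr1 in the B library crosses the line at 18 cells and Egr3 at 105, and in the T library Egr1 crosses at 107.

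The transcripts kept company. After thinning, 40.0% of the 35 Egr2-positive B lineage cells also held Egr1 (23.9% to 57.9%), against 1.77% of cells without Egr2, and 24.7% of the 77 Nr4a1-positive cells did, against 1.68%. In T lineage cells, 56.0% of 75 Egr2-positive cells (44.1% to 67.5%) and 58.8% of 68 Egr3-positive cells (46.2% to 70.6%) also held Egr1, against 3.79% and 3.81% of the others. Nr4a1 was in 47.1% of the Egr3-positive T lineage cells against 1.91% of the others, and Egr3 in 18.5% of the Nr4a1-positive cells against 0.495%. Nr4a3-positive cells held Nr4a1 in 35.5% and Egr1 in 33.9%. Nr4a2 went least with the others: 14.3% of its 49 positive cells held Egr1 against 4.24% of cells without it, and 20.4% held Nr4a1 against 2.20%. All cells had been brought to the same UMI number before these shares were taken. In each ordered pair of Egr1, Egr2, Egr3 and Nr4a1 among B lineage cells, and each ordered pair of the 6 among T lineage cells, the second gene was found more often in cells with the first than in cells without it.

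**Figure D2:**
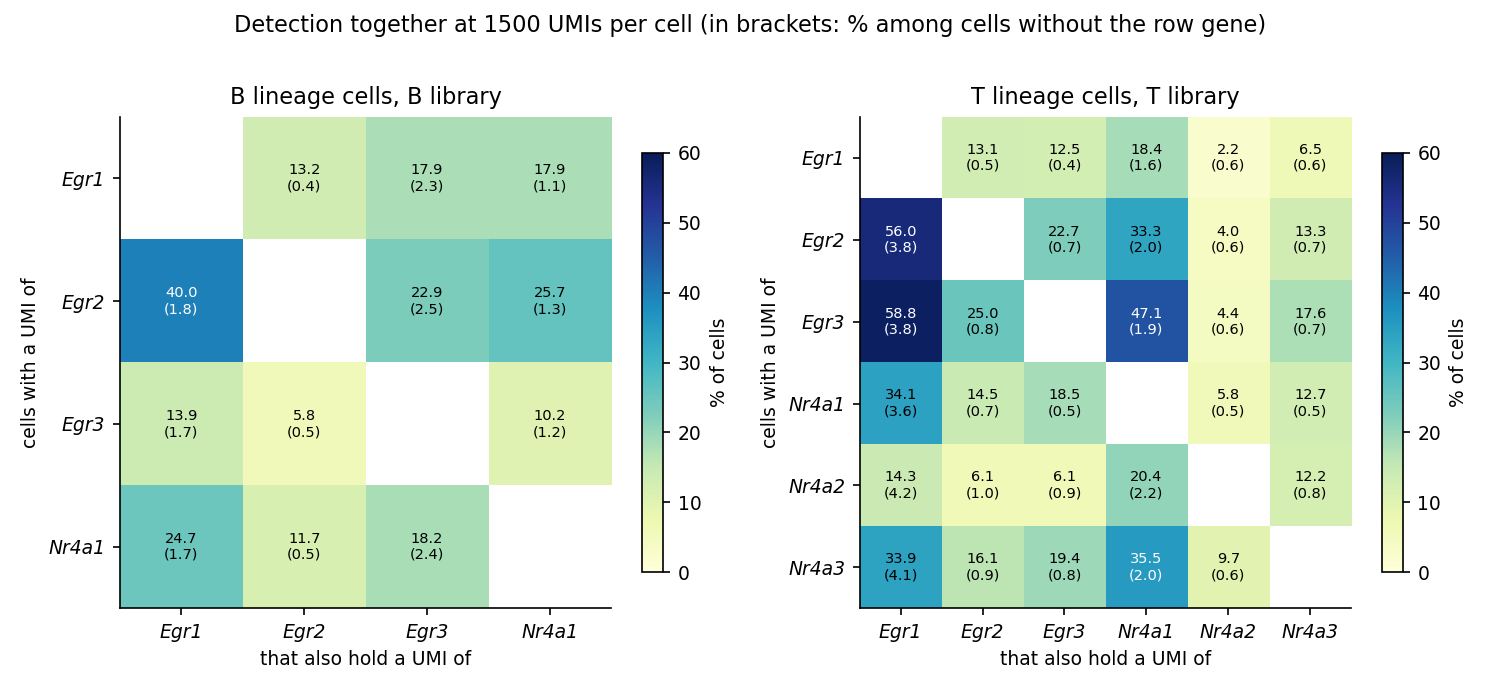
Share of cells (%, colour and upper number) with a UMI of the gene on the y axis that also held the gene on the x axis, and in brackets the share among cells without it, for B lineage (left, 4 genes) and T lineage cells (right, 6 genes) thinned to 1500 UMIs. The darkest cells are Egr1 in Egr2-positive (56.0%) and Egr3-positive (58.8%) T lineage cells, and the Nr4a2 rows and columns are pale.

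Cells with at least 2 of the 6 transcripts numbered 48 of 5241 B lineage cells (0.916%, 0.676% to 1.21%) and 129 of 7446 T lineage cells (1.73%, 1.45% to 2.06%). By pool they made up 0.737%, 0.916%, 0.765% and 1.13% of B lineage cells and 1.13%, 1.58%, 2.07% and 1.77% of T lineage cells, with overlapping intervals throughout. They were chosen by the members' own UMIs, so what follows describes them. Over cells with none of the 6, they carried more of a list of other antigen receptor response genes: 11 of 12 were called higher in B lineage cells (median log2 ratio 2.17, against 0.17 over all 10054 genes, of which 3.08% were called higher and 0.965% lower), and 14 of 17 in T lineage cells (1.995 against 0.11 over 10391 genes, 4.57% higher and 1.03% lower). In the B library the largest were Nfkbid, a nuclear IkB protein (17.1-fold, 12.2 to 23.5), Myc (9.52-fold, 6.74 to 13.1), the ERK phosphatase Dusp5 (8.84-fold from 3 UMIs, 1.74 to 28.0) and Dusp2 (6.59-fold, 5.14 to 8.34). In the T library they were Spry1, an inhibitor of receptor kinase signalling (24.1-fold, 9.65 to 55.3), Nfkbid (13.2-fold, 10.0 to 17.2), Irf4 (13.0-fold, 8.30 to 19.8) and Tagap (6.92-fold, 5.03 to 9.33). Nfkbid was thus among the leading genes in both lineages.

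Of 13 partners and targets of the 2 families tested in T lineage cells, 9 were not called and 4 were called higher in the cells with at least 2 members: the inhibitory receptor Lag3 (5.35-fold, 2.49 to 10.3), Nab2, the EGR co-repressor that EGR proteins themselves induce (5.14-fold, 3.16 to 7.97), Tox, an NFAT-driven factor (2.39-fold, 1.73 to 3.24), and Izumo1r, the folate receptor of anergic and regulatory T cells (1.76-fold, 1.36 to 2.25). The list's median was 0.61, and none of 7 was called in B lineage cells (median 0.24). Over all genes, 4.57% were called higher in T and 3.08% in B lineage cells. Among kinases and factors upstream of the members, Nfatc1 alone was called, at 3.90-fold (2.91 to 5.13) of 15 in T and 2.57-fold (1.51 to 4.09) of 17 in B lineage cells. Genes of the wider immediate early class, which tissue handling also raises, moved with the members: 7 of 11 were called higher in B lineage cells, led by Fos (24.3-fold, 9.70 to 53.4), and 6 of 11 in T lineage cells, again led by Fos (5.45-fold, 3.71 to 7.76), while Jun (0.390-fold, 0.143 to 0.853) and Klf6 (0.443-fold, 0.191 to 0.877), named after their values were seen, were lower there. The part of handling in these cells was not tested. Cycling markers gave 1 of 6 higher in B (Mki67, 5.87-fold, 2.31 to 12.5) and none of 6 in T lineage cells.

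**Figure D3:**
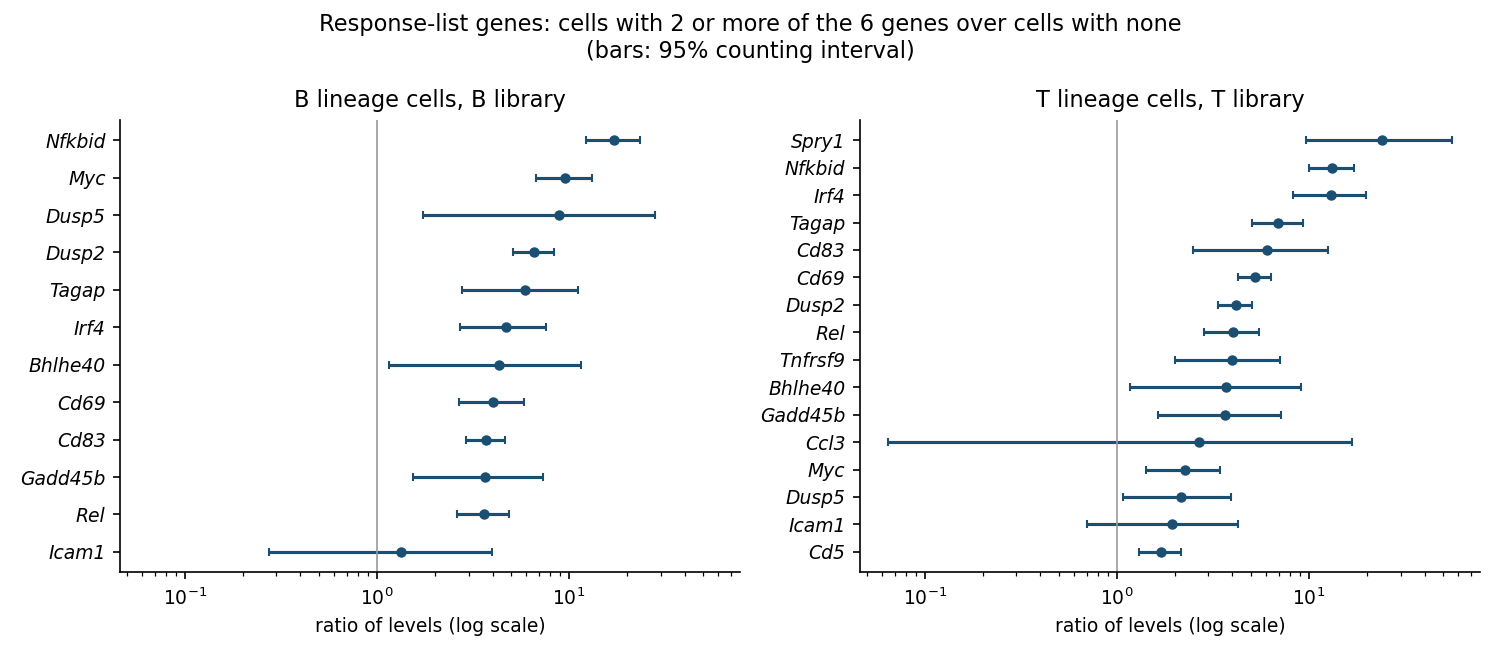
Ratio of levels (log scale, x axis) of response-list genes (y axis) in cells with 2 or more of the 6 genes over cells with none, for B lineage (left, 12 genes) and T lineage cells (right, the 16 genes of 17 with a UMI in both groups), with 95% counting intervals. All points lie to the right of 1, the lowest being Icam1 (1.34) in the B and Cd5 (1.69) in the T library; Il2, with no UMI in the cells with 2 or more, is left out.

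Summed over all B lineage cells, EGR levels differed between the pools mainly for Egr2 and Egr3. Egr2 stood at 4.27, 3.36, 5.06 and 9.28 CPM. The KO day 4 pool was the high one, and its interval (7.73 to 11.1) did not overlap those of the other 3 pools. It was 1.83-fold above control day 4 (1.31 to 2.59) and 2.76-fold above KO day 0 (1.70 to 4.74), and control day 4 was 1.19-fold control day 0 (0.721 to 1.996). Positive cells made up 0.460%, 0.305%, 0.535% and 1.07% of the pools, and the ratio of shares between KO and control on day 4, 2.0, had an interval of 0.814 to 5.61. Without the top cell of each sum the ratio of levels was 1.85 (1.30 to 2.67). Egr2 was the only member called higher in KO cells on day 4, of 4 tested, against 1.6% of 11552 genes, and none was called lower, against 2.17%. None of 17 upstream genes, Nfatc1 among them, was called.

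Egr3 separated the days when all B lineage cells of a pool were summed. Its levels were 28.7, 30.6, 18.1 and 20.1 CPM, with both day 4 pools below both day 0 pools. Day 4 over day 0 gave 0.629 (0.507 to 0.781) for control cells, and KO cells gave 0.658 (0.542 to 0.801). The shares of positive cells, 2.49%, 3.15%, 2.29% and 2.63%, overlapped in their intervals, with ratios of 0.923 (0.530 to 1.61) and 0.834 (0.521 to 1.35). Without its top cell the KO ratio was 0.710 (0.580 to 0.871), which no longer reached the fold. Of the partners and targets, 2 of 11 were called higher and 2 lower in control cells (Tox, 15.1-fold from 1 UMI, and Nt5e, 3.34-fold, against Nab2 and Cblb, 0.629-fold) and 1 of 10 each way in KO cells (Izumo1r, 9.66-fold from 1 UMI, against Nab2). Over all genes, 4.99% were called higher and 5.71% lower in control cells, and 3.05% and 3.1% in KO cells. Nab2 was lower, at 0.516-fold (0.40 to 0.665) for control and, for KO cells, 0.626-fold (0.488 to 0.807), as was Nfkbid, at 0.576-fold (0.496 to 0.669) and 0.621-fold (0.539 to 0.715). Cd83, an activation marker, rose against them at 2.56-fold (2.37 to 2.75) and 3.11-fold (2.89 to 3.36).

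Egr1 summed over all B lineage cells of a pool, at 30.1, 24.6, 22.4 and 27.6 CPM, was not called in any of the 4 comparisons. Its positive cells made up 2.21%, 2.03%, 1.83% and 2.04%. Its ratios ran from 0.746 (0.610 to 0.914) for day 4 over day 0 in control mice to 1.23 (1.04 to 1.46) for KO over control on day 4. Within Fcer2a+ resting cells, the follicular B cell gate described below, Egr1 was higher on day 4, at 14.8, 7.57, 29.2 and 37.8 CPM. There 1 cell held 36.0% of the control and 1 held 37.9% of the KO day 4 UMIs. Egr1-positive cells made up 1.86%, 1.33%, 2.20% and 1.29% of that gate. Nr4a1, at 16.2, 9.90, 9.93 and 14.1 CPM, was lower in KO than in control cells on day 0 (0.610-fold, 0.430 to 0.857) and 1.42-fold higher on day 4 (1.11 to 1.83, short of the fold). Day 4 over day 0 gave 0.611 (0.457 to 0.818) for control cells and, the other way, 1.43 (1.05 to 1.96) for KO cells. One control day 0 cell held 21.1% of that pool's 95 UMIs, and without the top cells the day 0 ratio was 0.703 (0.483 to 1.02). The shares of Nr4a1-positive cells were 1.38%, 0.814%, 1.07% and 2.15%. The interval of their day 4 ratio, 2.0, excluded 1 (1.07 to 3.99), and on day 0 it did not (0.589, 0.216 to 1.48).

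Across the B comparisons, the members called lower in KO cells on day 0 were 1 of 4 (Nr4a1), where 1.85% of 10695 genes were, and none was called higher, where 2.13% were. From day 0 to day 4 in control cells 2 of 4 were lower (Egr3 and Nr4a1) and none higher, against 5.71% and 4.99% of 11124 genes. In KO cells 1 was higher (Egr2) and 1 lower (Egr3), against 3.05% and 3.1% of 11312 genes. Nrgn, which encodes a calmodulin-binding protein of the target list, was higher in KO cells on both days, at 2.49-fold (1.39 to 4.68) and 1.69-fold (1.14 to 2.55). No response-list gene was called between KO and control B lineage cells on either day, of 12 and 13 tested.

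**Figure D4:**
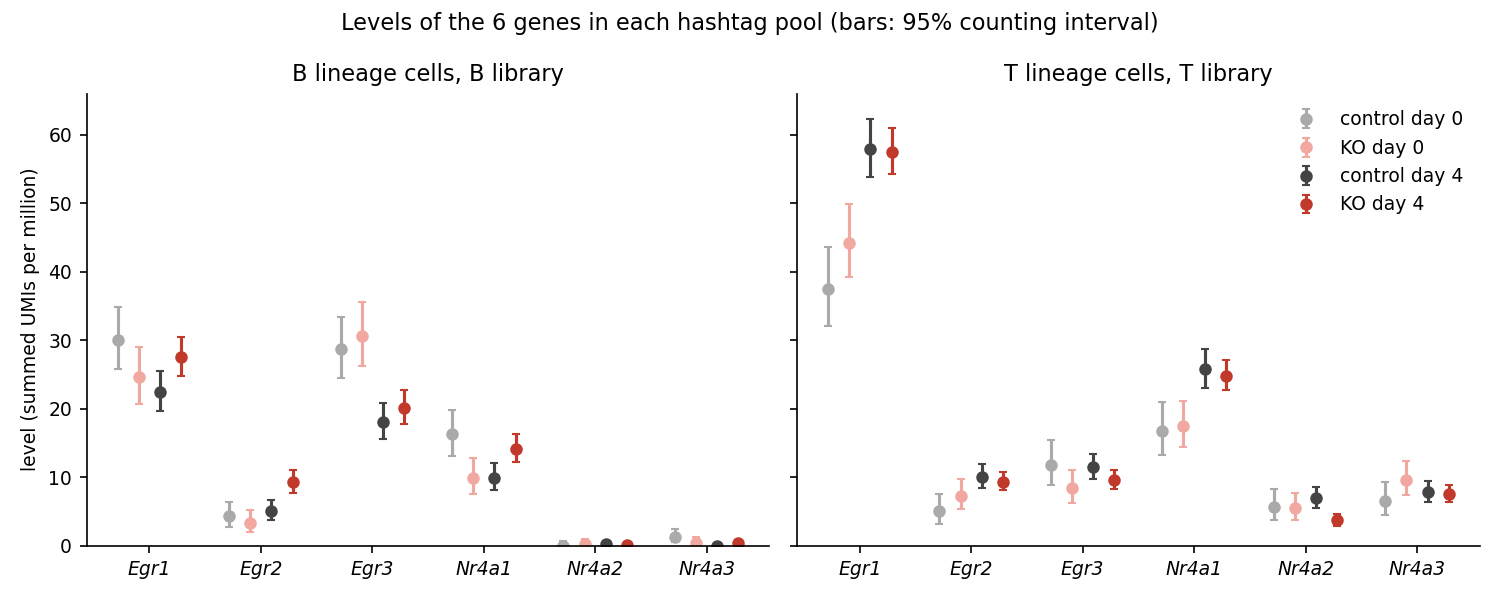
Level of each gene (summed UMIs as CPM, y axis from 0) in the 4 hashtag pools for B lineage (left) and T lineage cells (right), 1 point per pool with its 95% counting interval. In the B library Egr2 is highest in KO day 4 (9.28) and Egr3 is lower in both day 4 pools; in the T library Egr1 is higher in both day 4 pools (57.9 and 57.5) than in the day 0 pools (37.5 and 44.3).

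In T lineage cells Egr1, Egr2 and Nr4a1 were called between days in control mice, and Nr4a2 between genotypes. Egr1 stood at 37.5, 44.3, 57.9 and 57.5 CPM, and the day 4 intervals (53.9 to 62.3 and 54.2 to 60.9) lay above both day 0 intervals (32.1 to 43.6 and 39.2 to 49.8). Day 4 over day 0 gave 1.54 (1.31 to 1.83) for control mice and, for KO mice, 1.30 (1.14 to 1.49), and KO over control was 0.992 on day 4 (0.904 to 1.09). Positive cells made up 2.98%, 3.86%, 4.95% and 4.50% of the pools. Nr4a1 followed the same order, at 16.8, 17.5, 25.7 and 24.8 CPM, with day ratios of 1.53 (1.19 to 1.99) and 1.41 (1.15 to 1.76). Both genes thus reached the 1.5-fold rule in control mice and missed it in KO mice, and the difference between the genotypes was not tested. For Egr2 the levels were 5.02, 7.24, 10.0 and 9.34 CPM, with ratios of 2.0 (1.28 to 3.27) and 1.29 (0.927 to 1.83).

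Egr3, Nr4a2 and Nr4a3 were not called between days in either genotype. Egr3 levels were 11.8, 8.37, 11.4 and 9.63 CPM, and Nr4a3 levels 6.55, 9.65, 7.78 and 7.51 CPM. Nr4a2, at 5.67, 5.47, 6.92 and 3.71 CPM, was lowest in KO day 4, 0.535-fold of control day 4 (0.388 to 0.736). Without the top cells that ratio was 0.601 (0.428 to 0.843). The shares of Nr4a2-positive cells, 0.707% and 0.496%, had a ratio of 0.702 with an interval of 0.321 to 1.55. In T lineage cells 3 of 6 members were called higher on day 4 in control mice and none lower, against 7.3% and 2.81% of 11197 genes, and none in KO mice, against 4.9% and 1.68% of 11765. Between genotypes, none was called on day 0, against 2.03% higher and 1.55% lower of 10413 genes, and Nr4a2 was called lower on day 4, against 1.76% lower and 1.11% higher of 12109.

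Beside the members, whose median log2 ratio on day 4 over day 0 was 0.45 in control and 0.29 in KO T lineage cells, the other lists went different ways. Over all genes, 7.3% were called higher and 2.81% lower on day 4 in control mice, and 4.9% and 1.68% in KO mice. In control T lineage cells 8 of 19 response genes were called higher (median log2 ratio 0.31, against 0.01 over all genes), among them the chemokines Ccl4 (23.9-fold, 6.48 to 199) and Ccl3 (19.96-fold, 5.40 to 167), each from 2 UMIs on day 0, Spry1 (4.99-fold, 2.04 to 15.8) and Cd83 (4.58-fold, 2.61 to 8.78). Of the partners and targets, 6 of 13 were higher (median 0.61), led by Tox2 (7.79-fold, 4.48 to 14.8), a factor of follicular helper T cells, and Lag3 (6.40-fold, 3.98 to 10.9). Jun (0.480-fold, 0.429 to 0.537) and Dusp1 (0.666-fold, 0.566 to 0.784) of the wider immediate early list were lower, and none of its 12 tested genes was higher. In KO T lineage cells 1 of 17 response genes was higher (Irf4, 3.57-fold, 2.61 to 5.02) and 3 of 13 partners and targets (Lag3, 4.46-fold, Tox2, 3.40-fold, and Nt5e, 1.55-fold). KO over control on day 4 gave 4 lower of 19 response genes: Ccl4 (0.0142-fold), Ccl3 (0.0397-fold), Tnfrsf9 (0.571-fold) and Spry1 (0.635-fold). Over all genes, 1.76% were called lower in that comparison.

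A pool mixes resting and activated cells, so levels were also taken in subsets gated on marker genes that include none of the 6. Within T lineage cells, follicular helper-marker cells (310 cells with at least 2 of Cxcr5, Pdcd1, Bcl6, Il21, Tox2 and Angptl2) stood out for Egr2. They had 28.1 CPM against 5.78 in naive-marker cells (5511 cells), 4.87-fold (3.76 to 6.26), and 5.16% against 0.709% of thinned cells held a UMI. Clustering in place of gates gave 8.22-fold and gates on thinned counts 3.05-fold. The 2 day 4 pools, the ones with at least 20 such cells, read 28.9 (control) and 27.2 CPM (KO) and did not differ beyond counting error. Egr1 was 98.3 against 44.6 CPM in the same cells (2.20-fold, 1.95 to 2.48). By pool it was 127 CPM in control and 74.1 in KO, 0.584-fold (0.466 to 0.730), but 1 control cell held 22.8% of the UMIs, and gates on thinned counts turned the ratio to 1.54 (0.907 to 2.67). Nr4a1 (13.9 CPM) and Nr4a3 (3.41 CPM) were called lower than in naive-marker cells, at 0.646-fold and 0.488-fold, and clusters gave 1.07 and 1.34. Of the 6 members 2 were higher and 2 lower, where 24.7% and 9.54% of 11823 genes were.

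Regulatory T cells, gated by a Foxp3 UMI (695 cells), carried all 3 NR4A transcripts at higher levels than naive-marker cells. Nr4a1 read 32.9 against 21.5 CPM (1.53-fold, 1.27 to 1.83) and was higher in all 4 pools, at 22.8, 29.7, 30.2 and 36.4 CPM against 17.8, 11.5, 24.4 and 24.6. Nr4a2 read 9.24 against 3.81 CPM (2.43-fold, 1.66 to 3.50) and Nr4a3 12.9 against 6.98 (1.84-fold, 1.35 to 2.48), each higher in 3 of 4 pools, and the shares of positive cells were 1.31% against 0.527% and 2.18% against 0.582%. Clusters gave 6.29-fold for Nr4a2 and 3.85-fold for Nr4a3. Egr1 (67.6 CPM, 1.52-fold, 1.33 to 1.72) and Egr2 (10.4 CPM, 1.79-fold, 1.27 to 2.50) were also higher, and Egr3 was lower (6.09 CPM, 0.639-fold, 0.414 to 0.9501). That made 5 of 6 higher and 1 lower, where 18.6% and 3.97% of 11936 genes were. Without the top cells 3 of 6 were higher, as Egr1 (1.44) and Nr4a1 (1.45) no longer reached the fold.

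Cells with NK or innate-like markers (263 cells) were set apart by Nr4a2, at 14.2 CPM (3.73-fold over naive-marker cells, 2.36 to 5.71), higher in 4 of 4 pools, at 16.5, 17.3, 17.4 and 11.0 CPM from 4, 3, 10 and 10 UMIs. Nr4a3 (13.7 CPM, 1.96-fold, 1.25 to 2.95) and Egr3 (16.3 CPM, 1.71-fold, 1.14 to 2.49) were called too, but 35.5% of the Egr3 UMIs came from 1 cell, without the top cells the Egr3 ratio was 1.16 (0.696 to 1.82) and not called, and Nr4a3 was higher in 2 of 4 pools. These 3 of 6, 2 without the top cells, compare with 18.1% of 11757 genes called higher and 3.69% lower. In effector or memory-marker cells (420 cells) Nr4a1 was called lower (12.2 CPM, 0.565-fold, 0.394 to 0.787, but 1.01 with clusters), where 5.5% of 11803 genes were, and none higher, where 21.3% were. Egr1 in these cells was 15.6, 13.1, 76.7 and 61.0 CPM, and was higher on day 4 than on day 0 in control (4.92-fold, 1.63 to 24.3, from 3 UMIs) and also KO mice (4.64-fold, 1.91 to 14.7, from 5 UMIs), while the share of positive cells was 5.23% on day 4 against 5% on day 0 (2 of 40 cells) in control mice and 5.06% against 0 of 66 cells in KO mice.

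The T lineage cells that no gate took (281 cells) had levels of the members near or above the highest of the gated T lineage subsets, with intervals that overlapped those of follicular helper-marker cells for Egr1 and Egr2 and of NK or innate-marker cells for Egr3, Nr4a2 and Nr4a3. All 6 were called higher than in naive-marker cells, where 10.5% of 11611 genes were called higher and 2.17% lower. Egr1 stood at 100.3 CPM (2.25-fold, 1.83 to 2.74), Egr2 at 27.2 (4.70-fold, 3.06 to 6.999), Egr3 at 28.1 (2.95-fold, 1.96 to 4.31), Nr4a1 at 86.3 (4.00-fold, 3.18 to 4.99), Nr4a2 at 19.7 (5.17-fold, 3.08 to 8.28) and Nr4a3 at 23.4 (3.36-fold, 2.12 to 5.09). Ratios of the share of positive cells excluded 1 for Egr1 (2.66, 1.69 to 4.01), Egr2 (3.61, 1.36 to 8.17) and Egr3 (3.28, 1.24 to 7.35). They did not for Nr4a1 (1.83, 0.854 to 3.50), Nr4a2 (2.08, 0.406 to 6.72) and Nr4a3 (3.15, 0.957 to 8.14). One cell held 25% of the Nr4a1 UMIs, and 38.1% of the 21 Nr4a2 UMIs came from 1 cell. These cells were shallow, with a median of 3555 UMIs against 5147 in naive-marker cells, held Cd3e in 91.8% and Ikzf2, a regulatory T cell marker, in 35.2% of cells, and are left without a name. At least 2 members were found in 4.76% of them (2.56% to 8.01%), 3.55% of follicular helper-marker (1.78% to 6.26%), 2.62% of Foxp3+ (1.56% to 4.11%) and 1.42% of naive-marker cells (1.12% to 1.77%).

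**Figure D5:**
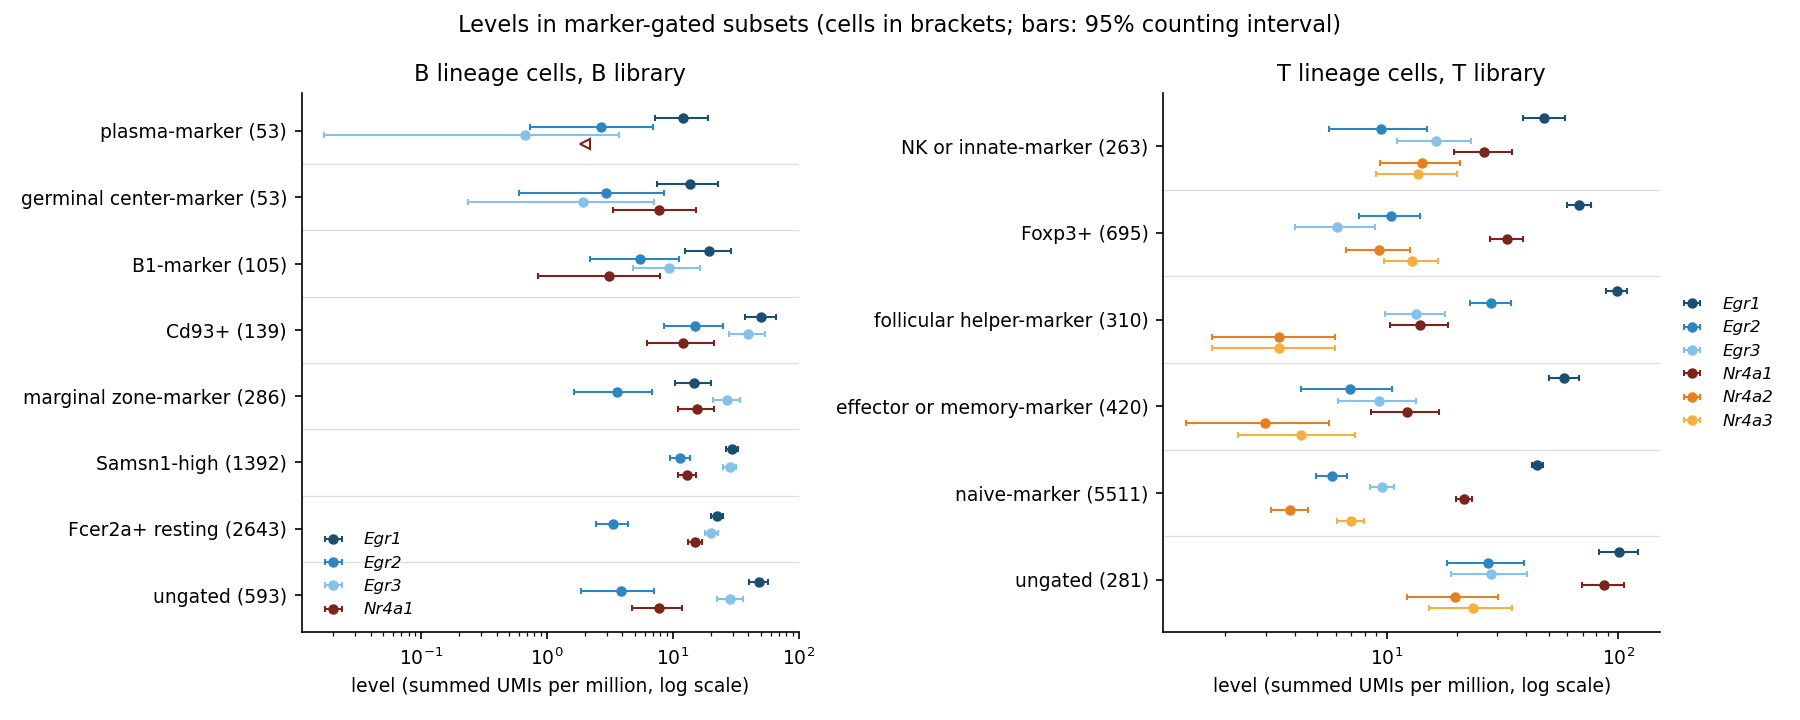
Level of each gene (summed UMIs as CPM, log scale, x axis) in marker-gated subsets (y axis, cell numbers in brackets) of B lineage (left, 4 genes) and T lineage cells (right, 6 genes), with 95% counting intervals; the open triangle marks the upper limit that a count of 0 allows. Egr2 is high in follicular helper-marker (28.1) and ungated T cells (27.2), and Egr3 is low in plasma-marker (0.677) and germinal center-marker B cells (1.96).

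Naive-marker cells, the bulk of the T library, showed the day difference of Nr4a1 in KO mice. Levels were 17.8, 11.5, 24.4 and 24.6 CPM. The KO ratio of day 4 to day 0 was 2.15 (1.62 to 2.89), and the share of positive cells went from 1.08% to 2.57%, a ratio of 2.38 (1.24 to 5.02). The KO over control ratio on day 0 was 0.645 (0.444 to 0.933). Egr1 in naive-marker cells was 37.0, 39.5, 39.7 and 51.6 CPM and Egr2 4.32, 5.64, 5.51 and 6.40, with no call between pools. Nr4a2 was again lowest in KO day 4, at 5.13, 3.43, 6.01 and 2.26 CPM, 0.376-fold of control day 4 (0.230 to 0.606). Foxp3+ cells of KO mice had Egr1 at 38.9 CPM on day 0 and 78.6 on day 4 (2.02-fold, 1.23 to 3.55), and 1 cell held 70.6% of the day 0 UMIs. Of 252 comparisons between pools within subsets, 39 were called, 32 of them the same way on the mean over cells. Of 31 that gates on thinned counts could also give, 15 were called the same way and 2 reversed. The share of all genes called was not computed for comparisons within subsets.

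In the B library, Egr2 was higher in a subset found mostly on day 4. Samsn1-high cells, defined by at least 3 UMIs of Samsn1, an adaptor that dampens B cell receptor signals, numbered 47, 42, 500 and 803 in the 4 pools, and 89.9% of them held Cd83. That subset was defined with earlier results of these data in view, and 290 cells had exactly 3 Samsn1 UMIs while 436 had 2. Egr2 stood at 11.5 CPM there against 3.33 in Fcer2a+ resting cells, the follicular B cell gate of 2643 cells (3.45-fold, 2.45 to 4.92). The share of positive cells was 1.37% against 0.304%, 4.49-fold (1.88 to 11.9). By pool it was 39.3, 6.37, 8.11 and 12.3 CPM against 1.56, 2.52, 2.04 and 6.67, higher in 4 of 4 pools, although 57.1% of the 14 UMIs in the 47 control day 0 cells came from 1 cell. Egr1 (29.7 against 22.4 CPM, 1.32-fold), Egr3 (28.4 against 20.3, 1.40-fold) and Nr4a1 (13.1 against 15.1, 0.868-fold) were not called. Egr3 was higher in 4 of 4 pools, and its share of positive cells was 3.67% against 2.24% (1.63-fold, 1.10 to 2.42). Share ratios of Egr1 (1.36, 0.830 to 2.21) and Nr4a1 (1.12, 0.636 to 1.91) did not exclude 1. By level, Egr2 was 1 of 4 called higher, where 3.14% of 11471 genes were, and none was lower, where 5.53% were. Within Samsn1-high cells of control mice all 4 genes were lower on day 4 than in the 47 cells of day 0, Egr1 at 0.0902-fold (0.0653 to 0.125), Egr2 at 0.206-fold (0.107 to 0.418), Egr3 at 0.145-fold (0.101 to 0.210) and Nr4a1 at 0.0964-fold (0.0562 to 0.166). The share of all genes called was not computed between pools within a subset, so this count has no yardstick. One of the 47 cells held 51.2% of that pool's Egr1 UMIs and 1 held 58.6% of its Nr4a1 UMIs, and without the top cells the ratios were 0.152 for Egr1, 0.398 for Egr2 (0.161 to 1.18), 0.169 for Egr3 and 0.194 for Nr4a1. In KO mice none of the 4 was called, at 1.99, 1.94, 0.627 and 0.981 in the same order. Between genotypes on day 4, Egr2 within Samsn1-high cells was not called, and within Fcer2a+ resting cells it was 6.67 CPM in KO and 2.04 in control from 27 and 6 UMIs (3.27-fold, 1.32 to 9.70), with an interval of 0.938 to 11.96 without the top cells.

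Other B subsets differed most in Egr3. Plasma-marker cells (53 cells) had 1 Egr3 UMI, 0.677 CPM, and germinal center-marker cells (53 cells) had 2, 1.96 CPM, against 20.3 in Fcer2a+ resting cells, ratios of 0.0334 (0.000842 to 0.187) and 0.0967 (0.0117 to 0.352). No Nr4a1 UMI was found in plasma-marker cells, which allows up to 2.03 CPM, against 15.1. Many genes were lower in these cells, 42.2% of 11060 in plasma-marker and 15.7% of 11025 in germinal center-marker cells, while 13% and 20.2% were higher. Members called lower were 3 of 4 in plasma-marker cells (Egr1 at 12.2 CPM, 0.543-fold, 0.318 to 0.872, with Egr3 and Nr4a1) and 1 of 4 in germinal center-marker cells. The share of Egr1-positive plasma-marker cells went the other way after thinning, 7.55% against 1.63% (4.62-fold, 1.20 to 12.7). Cycling B lineage cells (144 cells) were low in the same genes: Egr3 stood at 3.36 CPM against 24.7 in the other 5120 cells, Nr4a1 at 2.75 against 13.6 and Egr1 at 12.8 against 27.4. The groups overlap, as 39 of the 144 were germinal center-marker and 19 plasma-marker cells. In cycling T lineage cells (263) Egr1 was instead 72.8 CPM against 51.7 and Egr2 13.3 against 8.32, while Nr4a3 was 3.63 against 8.22. Of these 263, 69 were follicular helper-marker, 61 effector or memory-marker, 57 Foxp3+ and 56 naive-marker cells.

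Cd93+ cells (139 cells), the gate for immature transitional B cells, had higher Egr1 (50.4 CPM, 2.25-fold, 1.63 to 3.04), Egr2 (15.1 CPM, 4.54-fold, 2.36 to 8.25) and Egr3 (39.3 CPM, 1.94-fold, 1.35 to 2.72) than Fcer2a+ resting cells, each in 4 of 4 pools, and unremarkable Nr4a1 (12.1 CPM, 0.803-fold). Of the 4 members, 3 were called higher, where 6.08% of 10926 genes were, and none lower, where 2.52% were. The Egr2 value rested on 15 UMIs, and 1 cell held 36.0% of the Egr1 UMIs. The ratio of shares of positive cells excluded 1 for Egr2 alone (7.10, 1.21 to 29.6). It was 2.64 (0.918 to 6.23) for Egr1 and 0.962 (0.193 to 2.95) for Egr3. Marginal zone-marker cells (286 cells) had lower Egr1 (14.8 CPM, 0.658-fold, 0.455 to 0.926), 1 of 4 where 8.33% of 11067 genes were lower and 7.17% higher, and B1-marker cells (105 cells) lower Egr3 (9.38 CPM, 0.463-fold, 0.236 to 0.821, but 1.19 with clusters) and Nr4a1 (3.13 CPM, 0.208-fold, 0.0560 to 0.539), 2 of 4 where 8.42% of 10991 were lower and 7.82% higher. Ungated B lineage cells (593 cells) had Egr1 at 48.4 CPM (2.16-fold, 1.74 to 2.66), and Nr4a1 at 7.74 (0.514-fold, 0.308 to 0.813), 1 of 4 each way where 3.4% of 11054 genes were higher and 1.91% lower. One cell held 37.6% of the Egr1 UMIs, and with that cell alone left out the ratio was 1.35. Without the top cell of each sum, ungated cells had 30.3 CPM and Fcer2a+ resting cells 18.4, still more than 1.5-fold apart. By pool Egr1 was 26.6, 130.7, 17.2 and 18.6 CPM there against 14.8, 7.57, 29.2 and 37.8 in Fcer2a+ resting cells, higher in the day 0 pools and lower in the day 4 pools.

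Cells set aside as other lineages, 213 in the B and 156 in the T library, carried NR4A transcripts too. In the B library, where Lyz2 of monocytes and macrophages stood at 5431 CPM in 56.3% of these cells, Nr4a1 reached 84.2 CPM (5.59-fold over Fcer2a+ resting cells, 4.67 to 6.69) and Egr3 0.862 CPM (0.0425-fold, 0.00871 to 0.125). That was 1 of 4 members each way, where 31% of 11913 genes were higher and 18.1% lower. In the T library, where 39.1% of these cells held Cd3e, Egr1 (85.1 CPM, 1.91-fold, 1.54 to 2.35), Nr4a1 (54.1 CPM, 2.51-fold, 1.90 to 3.27) and Nr4a2 (23.1 CPM, 6.05-fold, 3.79 to 9.33) were higher than in naive-marker cells, 3 of 6 where 27.1% of 11978 genes were higher and 7.21% lower.

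Over the subsets, Egr1 and Egr2 went together in the T library more closely than any other pair of members. Across 17 subset-by-pool sums of at least 50 cells, which share 1 library and its sequencing run, the correlation of log2(CPM + 1) was 0.952, and each was the gene most like the other among genes with at least 200 UMIs. The next were Zdhhc6 for Egr1 (0.909) and Fastkd3 for Egr2 (0.884). Nr4a1 and Nr4a3 had 0.698, Egr3 and Nr4a2 0.737. For the other members the most alike genes were Gm44686 for Egr3 (0.932), Slc25a36 for Nr4a1 (0.872), Gsdmd for Nr4a2 (0.905) and Akr1c13 for Nr4a3 (0.857). In the B library, over 14 such sums, Egr1 and Egr2 had 0.478, and the genes most like Egr1, Egr2, Egr3 and Nr4a1 were Ncbp3 (0.824), Hist1h2bn (0.834), Cep295 (0.852) and Dnajc1 (0.885). With so few sums and low counts these values only describe the libraries.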

How the data were processed

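Single-cell libraries of splenic B and CD4+ T cells were deposited as UMI counts per gene and cell with 4 hashtag counts, made by the authors with Cell Ranger 5.0.0 on mm10 per the submitters' processing notes. A minimum of 200 genes and a limit of 10% mitochondrial UMIs left 6218 of 6339 and 9196 of 9307 barcodes. HTODemux (Seurat 5.3.0, R 4.3.3, quantile 0.99) assigned hashtags. Cells with several (568 and 1007) were left out as doublets and cells with none (173 and 553) were not used; doublets within a pool could not be seen. The lineage needed 2 own markers and at most 1 of each foreign list, which set 213 and 156 cells aside. Sums, exact Poisson, binomial and conditional binomial 95% intervals were computed with Python 3.11.15 and scipy 1.17.1, and clusters with scanpy 1.11.5. Detection shares and the cells with several members used counts thinned to 1500 UMIs. Intervals were tested on simulated data: for KO over control on day 4, 95.88% of unchanged B library genes (11554 genes run) and 95.74% of T library genes (12109) had intervals that held 1. The simulated sums were Poisson counts, the model that the intervals assume, and had no spread between cells. The result therefore checks the computation and does not show how often the intervals hold for real pools. Gene identifiers matched GENCODE vM21 for 32158 of 32285. RefSeq promoters were given for Egr2, Nr4a1, Nr4a2 and Nr4a3. All 6 members are named, of each other list at most 4 called genes per comparison, those with the largest ratio in either direction, and for each member the genes most like it. Members, lists, gates and rules were chosen with earlier results of these data known.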

Additional observations from a re-analysis of the deposited data

Results flagged for a closer look

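Summed over all B lineage cells of a pool, Nr4a1 moved in opposite directions in groups under the same contrast. KO over control was 0.610 on day 0 and 1.42 on day 4, and day 4 over day 0 was 0.611 in control and 1.43 in KO cells. With 1 pool per group the difference between these ratios was not tested. Within Fcer2a+ resting cells the control ratio of day 4 to day 0 was instead 1.41, with an interval that included 1. KO levels there were 10.1 CPM on day 0 and 19.5 on day 4. KO over control there was 0.792 on day 0 and 1.08 on day 4, both with intervals that included 1. Of the 95 Nr4a1 UMIs of control day 0, 29 came from the 47 Samsn1-high cells, 17 of them from 1 cell. Another 20 came from 1 Fcer2a+ resting cell. Cells outside the lineage gates, which enter no comparison between pools, had higher Nr4a1 and Nr4a2 levels than the lineage cells of their library. In the B library 213 such cells had Nr4a1 at 84.2 CPM (in 15.8% of thinned cells) and Nr4a2 at 2.87 CPM from 10 UMIs, and by pool Nr4a1 was 31.4, 159.7, 85.7 and 82.1 CPM. Their leading markers were Lyz2 (5431 CPM) and S100a8 (4260 CPM). In the T library 156 such cells had Nr4a1 at 54.1 CPM and Nr4a2 at 23.1 CPM, with the erythroid gene Hbb-bs at 11419 CPM.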

How the results depend on the processing

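The number of members called depended on the setting. For KO over control B lineage cells on day 0, the 1 call (Nr4a1) became 0 with all cells of 1 hashtag, with the mean over cells, without the cell with the most UMIs and with counts of positive cells, and on day 4 the 1 call became 3 at any fold. From day 0 to day 4 in control B lineage cells, the 2 calls became 1 with a margin rule for hashtags, with at most 5% mitochondrial UMIs, with all cells of 1 hashtag and without the top cell, and 0 with the mean over cells and with counts of positive cells. In KO B lineage cells 2 became 1 without the top cell. In T lineage cells, KO over control went from 0 to 1 on day 0 with the mean over cells (Nr4a3) and from 1 to 0 on day 4 with counts of positive cells. Day 4 over day 0 went from 3 to 1 in control with counts of positive cells, and in KO from 0 to 1 with all cells of 1 hashtag, to 2 without the top cell and to 2 at any fold. With all cells of 1 hashtag, which adds Nr4a1-rich cells of other lineages, Nr4a1 turned to 1.10 for KO over control on day 0 and to 1.13 for day 4 over day 0 in control B library cells. Clusters in place of gates turned Egr3 in B1-marker cells to 1.19, and Nr4a1 and Nr4a3 in follicular helper-marker cells to 1.07 and 1.34 and Nr4a1 in effector or memory-marker cells to 1.01. Gates on thinned counts turned KO over control of Egr1 in follicular helper-marker cells on day 4 to 1.54, and of Nr4a3 in naive-marker cells on day 0 to 0.728. Apart from all cells of 1 hashtag, for which the added cells are the change, the cause was not tested. Of 60 subset levels 25 were called. With clusters 16 of these were called the same way and 4 reversed (24 calls in all), without the top cell 22 were (25 in all), and with gates on thinned counts 12 of 22 (18 in all). Counts of positive cells were added after seeing the data. With 4 and 14 UMIs in all, Nr4a2 and Nr4a3 could not be compared between pools of B lineage cells. No paired analysis was possible because each group was 1 hashtag pool.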
